A study of Mus musculus with 7 samples.

Results

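The antiviral interferon-stimulated genes described here are 36 genes, named in a fixed list and matched by Entrez identifier and symbol to the 27179 genes counted in mouse CD8 dendritic cells. All 36 were found. The list leaves out the immunity-related GTPases, the guanylate-binding proteins and the STAT factors. The RNA came from sorted CD8 dendritic cells of C57BL/6 mice, with 7 libraries in 3 groups. CD103 negative (n = 3) and CD103 low (n = 2) cells came from untreated mice, and CpG CD103 high cells (n = 2) carried the label of CpG treatment. CpG stands for unmethylated CG dinucleotides, the bacterial-type DNA sensed by the endosomal receptor encoded by Tlr9, and CD103 is the integrin chain encoded by Itgae. Itgae followed the labels, at 1019 and 992 CPM (library-scaled counts) in CpG CD103 high, 346 and 375 in CD103 low and 54.3 to 62.7 in CD103 negative cells. The design text calls the samples of a group biological replicates, and the tissue, age, sex, dose, time and any pooling of animals were not stated in the labels. The treated libraries were also the CD103 high ones, so treatment and CD103 level cannot be told apart.

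Each library held between 4474211 and 4629181 counts. Both CpG CD103 high libraries and CD103 negative replicates 1 and 2 carried a date of 2012, and CD103 negative replicate 3 and both CD103 low libraries a date of 2013; the labels do not say what was done on these dates. The marker genes of the type 1 conventional dendritic cell were abundant in every library, with a summed level of 6195 to 11430 CPM over 8 genes. Summed markers of each other cell type were lower in every library, and the counts of those called are given beside each comparison.

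Type I interferons act through the receptor of IFNAR1 and IFNAR2 and the kinases JAK1 and TYK2. They activate the complex ISGF3, which contains IRF9 and binds the interferon-stimulated response element (ISRE) near the start of many genes that restrict viruses. Dendritic cells keep part of this programme switched on at rest, and IRF7, itself such a gene, drives the production of more interferon. Some members can also be switched on by IRF1, so the genes of the list need not move as one.

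Promoters were examined first, because the element that names the family can be read directly. RefSeq promoter windows of build GRCm38.p6, from 250 bases before to 50 after each start, were at hand for 26 of the 36 genes. The ISRE core was searched on both strands as GAAA, any 2 bases, GAAA, and overlapping matches were kept. It occurred in 14 of the 26 genes (53.8%), against 3.99% of the 27025 genes with a window. The stretches below all lie upstream of the start and run 5′ to 3′ on the strand of the gene, with the matching letters in capitals. They show the tandem cores of Isg15, Bst2, Oas1a and Ifit1, and the single matches of Slfn5 and Rsad2. Trim30a has 1 match in the printed stretch and another in the window of its second start site. Slfn5 and Trim30a follow the naming rule, and the other 5 were added after the matches had been seen.

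Isg15, chr4:156200850-156200921, minus strand: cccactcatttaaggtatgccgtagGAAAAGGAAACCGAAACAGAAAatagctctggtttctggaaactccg

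Bst2, chr8:71537562-71537627, minus strand: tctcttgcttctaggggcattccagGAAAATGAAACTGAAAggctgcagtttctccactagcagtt

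Oas1a, chr5:120907526-120907570, minus strand: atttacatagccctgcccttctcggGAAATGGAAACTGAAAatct

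Ifit1, chr19:34640760-34640838, plus strand: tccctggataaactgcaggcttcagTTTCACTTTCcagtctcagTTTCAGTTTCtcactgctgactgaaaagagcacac

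Rsad2, chr12:26456538-26456597, minus strand: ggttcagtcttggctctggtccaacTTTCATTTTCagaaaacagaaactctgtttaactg

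Trim30a, chr7:104465195-104465254, minus strand: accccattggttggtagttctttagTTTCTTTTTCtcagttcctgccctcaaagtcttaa

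Slfn5, chr11:82951922-82951981, plus strand: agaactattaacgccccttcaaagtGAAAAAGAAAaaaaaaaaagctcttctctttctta

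**Figure D1:**
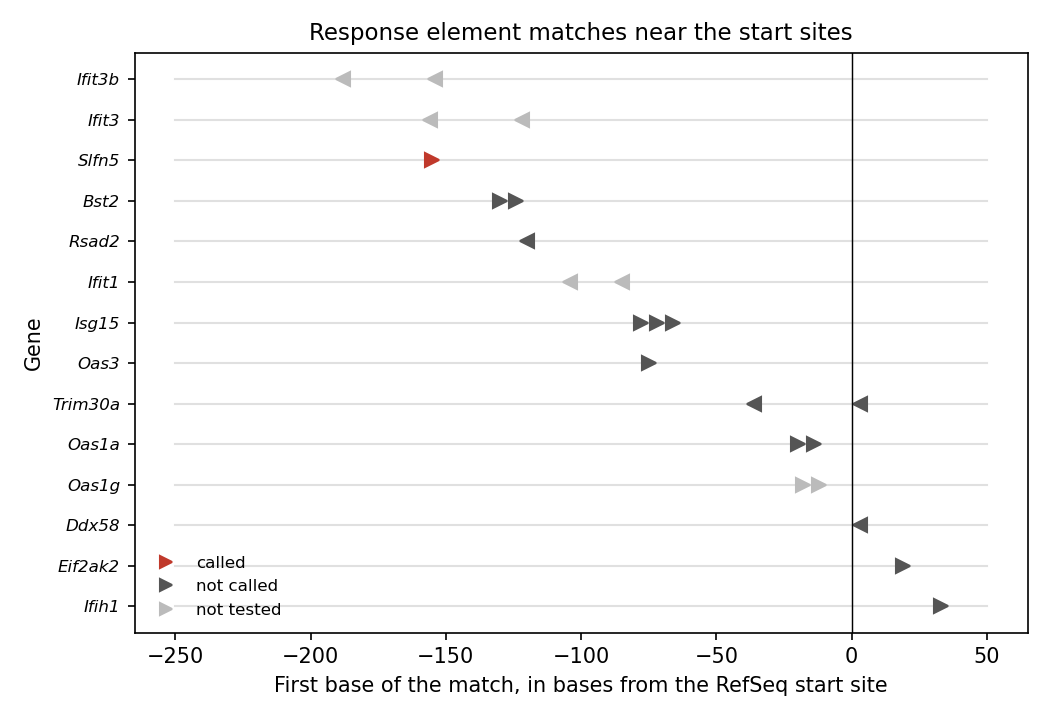
Positions of the matches to the ISRE core in the promoter windows of the 14 genes that hold one, in bases from the RefSeq start site; arrows point in the direction of the match relative to the gene, and colour shows whether the gene was called in CpG CD103 high against CD103 negative cells. Isg15 holds 3 overlapping matches, and Slfn5 is the called gene among the 14.

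The genes spanned a wide range of levels. Per kilobase of gene length, Ly6e, a membrane protein that restricts coronaviruses, held 62.2% of the summed level of the 36 genes, with a mean of 1365 CPM per kilobase over the 7 libraries. Samhd1 followed at 206, Irf7 at 103, Trim30a at 94.2, Bst2 at 77.2 and Ly6a at 71.5 CPM per kilobase. Several classical genes of a strong interferon response stood far lower, with Isg15 at 14.2, Ifit2 at 4.30, Rsad2 at 1.17 and Ifit1 at 0.551 CPM per kilobase. Ifit1, Ifit3, Ifit3b, Oas1g, Oas2, Rtp4 and Ifi44l did not pass the filter on low counts and were not tested, and none of these 7 had more than 11 counts in any library. Ifi44l had 0 counts in all 7 libraries, which allows a level of up to 0.648 to 0.671 CPM (3 counts). Ifit3 and Ifit3b, and Oas1a and Oas1g, are close copies whose reads the counting could split, so their separate values are uncertain.

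**Figure D2:**
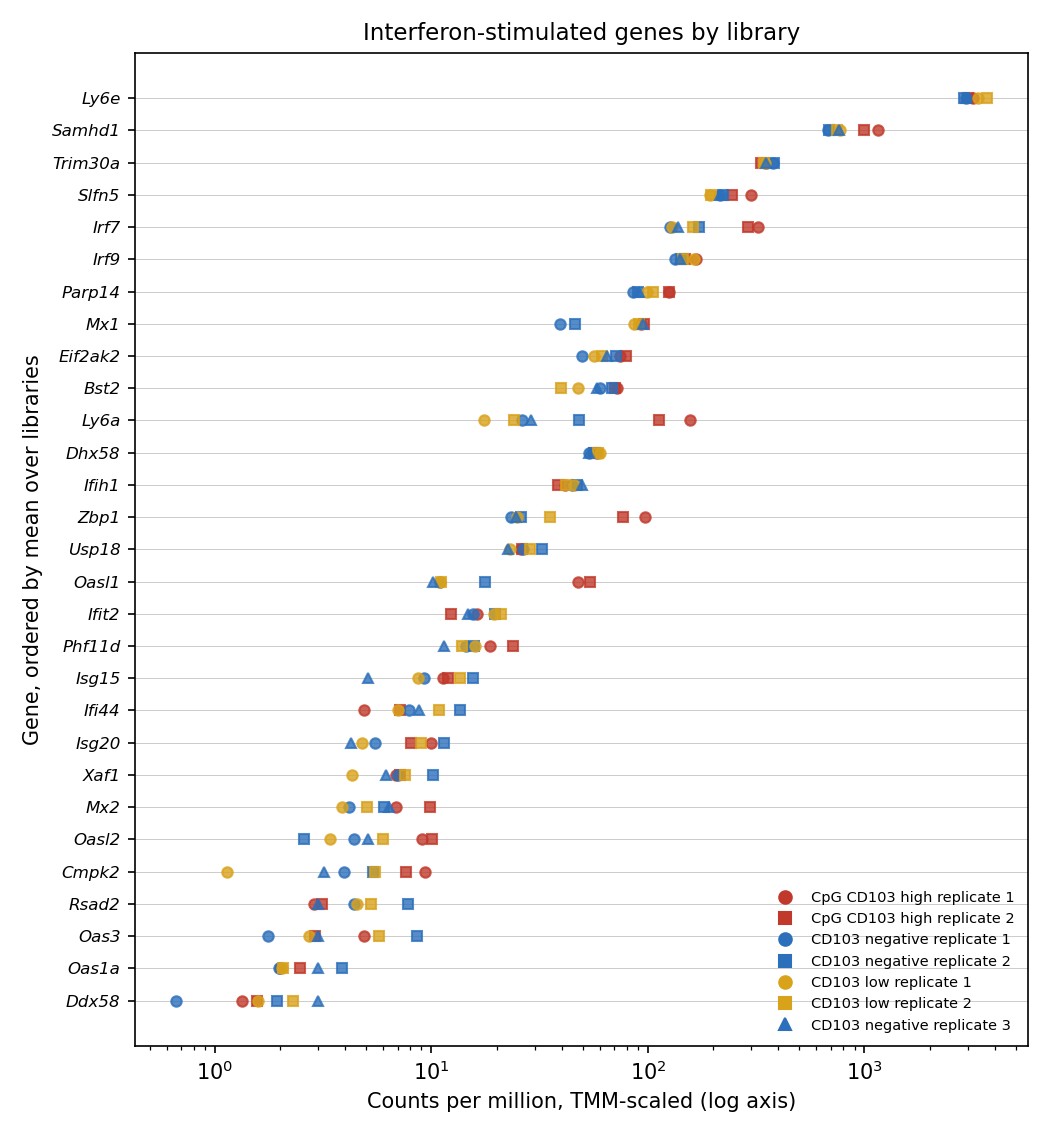
Level of each of the 29 tested genes in each library, in CPM scaled by trimmed mean of M-values on a log axis; colours mark the groups and shapes the replicates. Irf7, Zbp1, Oasl1 and Ly6a show both CpG CD103 high libraries to the right of all untreated ones, while Mx1 shows the 2 CD103 negative libraries of 2012 apart from all others.

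Between treated and untreated cells, the first question was how the antiviral programme stood in CpG CD103 high relative to CD103 negative cells. Part of the list rose: 9 of the 29 tested genes were higher and 0 were lower at a Benjamini-Hochberg adjusted p under 0.05 in edgeR's quasi-likelihood test with the date as a term. Over all 10863 genes tested, 14.5% were called higher and 11.8% lower. Because the date is a term, the fold changes of this comparison set the treated libraries against CD103 negative replicates 1 and 2, of the same date. CD103 negative replicate 3 bears on the date term, although the group means and ranges given below include it. The median log2 fold change of the 29 genes was 0.15, against -0.01 over all genes, and single values ran from -1.01 to 1.85. DESeq2 and limma voom also called 0 lower, and 2 genes with a negative change, Rsad2 and Ifi44, had an unadjusted p under 0.05. Both CpG CD103 high libraries lay above all 5 untreated libraries for 13 of the 29 genes, which 16.3% of all genes also did, and below all 5 for 1, Ifih1, which 17.6% of all genes did. In bulk RNA, fewer cells with a transcript and less of it per cell cannot be told apart.

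Among the transcription factors, Irf7 (chromosome 7, 141263183 to 141266499) measured 321 and 289.8 CPM in treated CpG CD103 high cells. It stood at 126, 172 and 138 in CD103 negative cells and at 129.6 and 162 in CD103 low cells. The untreated groups overlapped each other, and no untreated library reached the treated ones. The means were 305 ± 21.9 (SD, n = 2), 145 ± 23.7 (n = 3) and 146 ± 22.9 (n = 2) in that order, and the log2 fold change against CD103 negative cells was 1.03 (SE 0.15, edgeR adjusted p 0.000979). Irf9, the DNA-binding part of ISGF3, measured 149 and 168 CPM in treated CpG CD103 high cells and 134 to 163 in untreated cells, and these ranges overlapped.

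Among the nucleic acid sensors, Zbp1 (chromosome 2, 173206612 to 173218959) was called. Its protein binds left-handed nucleic acid and can trigger necroptosis. It measured 97.2 and 76.9 CPM in treated CpG CD103 high cells, 23.3, 25.9 and 24.5 in CD103 negative cells and 24.75 and 35.2 in CD103 low cells. Both treated libraries exceeded every untreated one. The log2 fold change was 1.82 (SE 0.18, adjusted p 0.000153). The cytosolic RNA sensors were not called. Ifih1, which encodes MDA5, stood at 38.55 and 41.5 CPM in treated and 41.8 to 49.6 in untreated libraries, and Dhx58, which encodes LGP2, at 56.25 and 57.9 and 53.6 to 59.9. Ddx58, which encodes RIG-I, was near the detection limit at 0.659 to 2.98 CPM over all libraries. Eif2ak2, the kinase PKR that stops translation, stood at 74.5 and 79.6 CPM against 49.8 to 71.4 in untreated libraries. Its log2 fold change of 0.35 (SE 0.16, adjusted p 0.128) was not called. Without CD103 negative replicate 2 it was 0.63 and called higher. That fit leaves CD103 negative replicate 1 as the only control of 2012, and it was the library of lowest Eif2ak2 level.

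In the OAS family, whose classical members make the second messenger that activates RNase L, the called genes were the OAS-like ones. Oasl1 (chromosome 5, 114923143 to 114937911), a protein without synthase activity that restrains translation of Irf7 mRNA, measured 47.5 and 54.2 CPM in treated CpG CD103 high cells. Its levels were 10.98, 17.7 and 10.2 in CD103 negative and 10.9 and 11.03 in CD103 low cells, and the treated libraries did not overlap with these. The log2 fold change was 1.82 (SE 0.20, adjusted p 0.000246). Its neighbour Oasl2 (114896926 to 114912245) measured 9.10 and 10.1 CPM in treated CpG CD103 high, 4.39, 2.59 and 5.11 in CD103 negative and 3.41 and 5.98 in CD103 low cells. Its log2 fold change was 1.45 (SE 0.35, adjusted p 0.0134). Oasl2 was not called by DESeq2 (adjusted p 0.0886), nor in edgeR when CpG CD103 high replicate 2 (0.0625) or CD103 negative replicate 2 (0.0857) was left out. Oas1a and Oas3 were not called and stood at 2.00 to 4.88 CPM in treated and 1.76 to 8.62 in untreated libraries.

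Of the genes that limit nucleotides or degrade RNA, Samhd1 (chromosome 2, 157097534 to 157135096), which hydrolyses the building blocks of DNA and so starves reverse transcription, measured 1151 and 996 CPM in treated CpG CD103 high cells. It stood at 680.0, 683 and 765 in CD103 negative and at 769 and 744 in CD103 low cells. The lowest treated library exceeded the highest untreated one, with a log2 fold change of 0.66 (SE 0.09, adjusted p 0.000741). The exonuclease gene Isg20 stood at 8.07 and 9.98 CPM in treated and at 4.26 to 11.4 in untreated libraries, with overlap.

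Among membrane proteins, Ly6a (chromosome 15, 74994877 to 74998031), which encodes the surface antigen Sca-1, measured 157 and 112 CPM in treated CpG CD103 high cells. CD103 negative libraries held 26.1, 48.3 and 28.95 CPM and CD103 low libraries 17.5 and 24.1, so that no untreated library came near the treated ones. The log2 fold change was 1.85 (SE 0.25, adjusted p 0.000799). Its neighbour Ly6e (74955025 to 74959904) was not called, at 3175 and 3010 CPM in treated, 2884 to 2940 in CD103 negative and 3357 and 3677 in CD103 low libraries. Bst2, the tetherin that holds budding virions at the cell surface, stood at 70.2 and 72.1 CPM in treated and 39.5 to 67.9 in untreated libraries, and was not called.

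Mx1 (chromosome 16, 97447035 to 97462906) encodes a GTPase against influenza viruses, in a form that carries a deletion in C57BL/6 and most other inbred strains. It measured 92.5 and 96.4 CPM in treated CpG CD103 high cells, while CD103 negative replicate 1 held 39.1, replicate 2 held 45.9 and replicate 3 held 94.5. CD103 low libraries held 86.05 and 90.6. The libraries dated 2013 thus lay at the level of the treated ones although untreated. The log2 fold change of 1.15 (SE 0.11, adjusted p 0.000153) compares libraries of 2012, and without the date term it was 0.66 (adjusted p 0.183). Mx2 stood at 6.88 and 9.86 CPM against 3.86 to 6.385 in untreated libraries, and Cmpk2, a kinase that supplies the nucleotide for viperin, at 9.32 and 7.62 against 1.14 to 5.52. Neither was called.

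The last called genes changed by less. Parp14, a transferase of ADP-ribose, measured 125.3 and 124.6 CPM in treated CpG CD103 high cells, 85.2 to 90.7 in CD103 negative and 98.8 and 105 in CD103 low cells. The log2 fold change was 0.52 (SE 0.09, adjusted p 0.00308). Slfn5, of the schlafen family, stood at 301 and 244 CPM in treated and at 193 to 223 in untreated libraries, with 0.32 (SE 0.10, adjusted p 0.0479). The call of Slfn5 was lost in 12 of 15 alternatives, with an adjusted p of up to 0.281, and it did not hold in the 2012 libraries alone (0.32, adjusted p 0.0858). The other 8 called genes passed the threshold in the 2012 libraries alone, with adjusted p from 0.000538 for Zbp1 to 0.0168 for Oasl2. With the date term the main fit already compares libraries of 2012. This fit therefore re-estimates the spread and is no separate evidence.

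**Figure D3:**
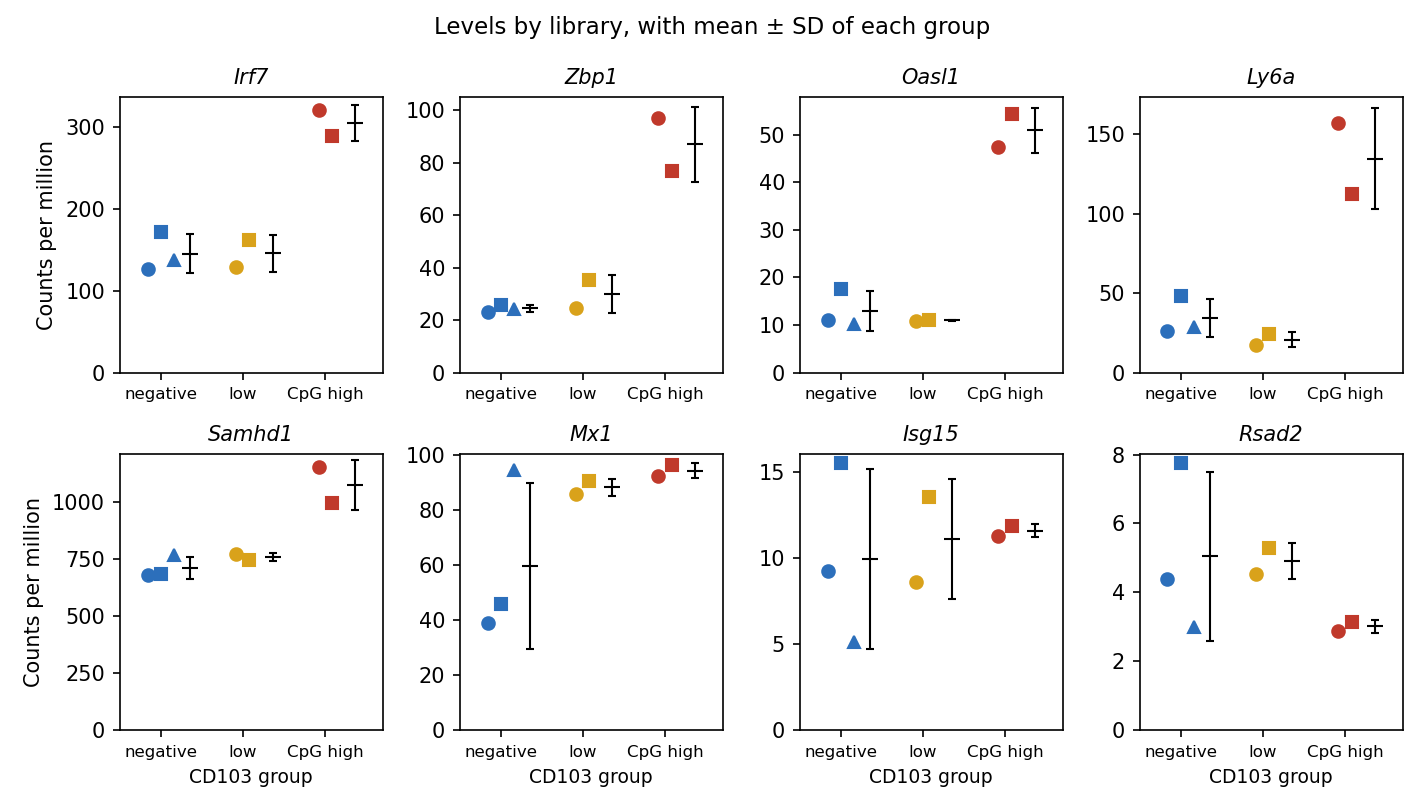
Levels of 8 genes in CPM on a linear axis from 0, by CD103 group (circles replicate 1, squares replicate 2, triangle replicate 3), with the mean and SD of each group as a bar beside the points. The treated group stands apart for Irf7, Zbp1, Oasl1, Ly6a and Samhd1; CD103 negative replicate 3 lies with the treated libraries for Mx1; Isg15 and Rsad2 overlap or lie lower in treated cells.

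Of genes often read as a signature of acute type I interferon, Isg15, Usp18, Ifit2 and Rsad2 were not called higher. Irf7, Mx1, Oasl1 and Zbp1, given above, were called higher. Isg15, a ubiquitin-like modifier, measured 11.3 and 11.9 CPM in treated CpG CD103 high cells, 9.22, 15.5 and 5.11 in CD103 negative and 8.63 and 13.6 in CD103 low cells. The treated values lay inside the range of the untreated ones. Usp18, the protease that removes it and damps the receptor, stood at 26.0 and 26.2 CPM against 22.6 to 32.3. Ifit2, an RNA-binding protein of the IFIT family, stood at 16.2 and 12.3 CPM against 14.7 to 20.9. Rsad2, which encodes viperin, stood at 2.88 and 3.14 CPM in treated libraries, at 4.39, 7.76 and 2.98 in CD103 negative and at 4.54 and 5.29 in CD103 low cells. Its log2 fold change of -1.01 (SE 0.38) had an adjusted p of 0.0765 and was not called, and Ifi44, at 4.88 and 7.17 CPM against 7.04 to 13.6, had -0.83 (SE 0.34, adjusted p 0.101). Without CD103 negative replicate 1 both of these were called lower, Rsad2 at -1.36 and Ifi44 at -1.17. That fit leaves CD103 negative replicate 2 as the only control of 2012, and it was the library of highest level for both genes. Trim30a, which damps Toll-like receptor signalling, stood at 349.9 and 331 CPM against 344 to 384. Xaf1, linked to cell death, stood at 6.88 and 7.17 CPM against 4.31 to 10.1. For Phf11d, at 18.6 and 23.8 CPM against 11.5 to 15.9, both treated libraries lay above all untreated ones. Its log2 fold change of 0.49 (SE 0.19, adjusted p 0.08) was not called.

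**Figure D4:**
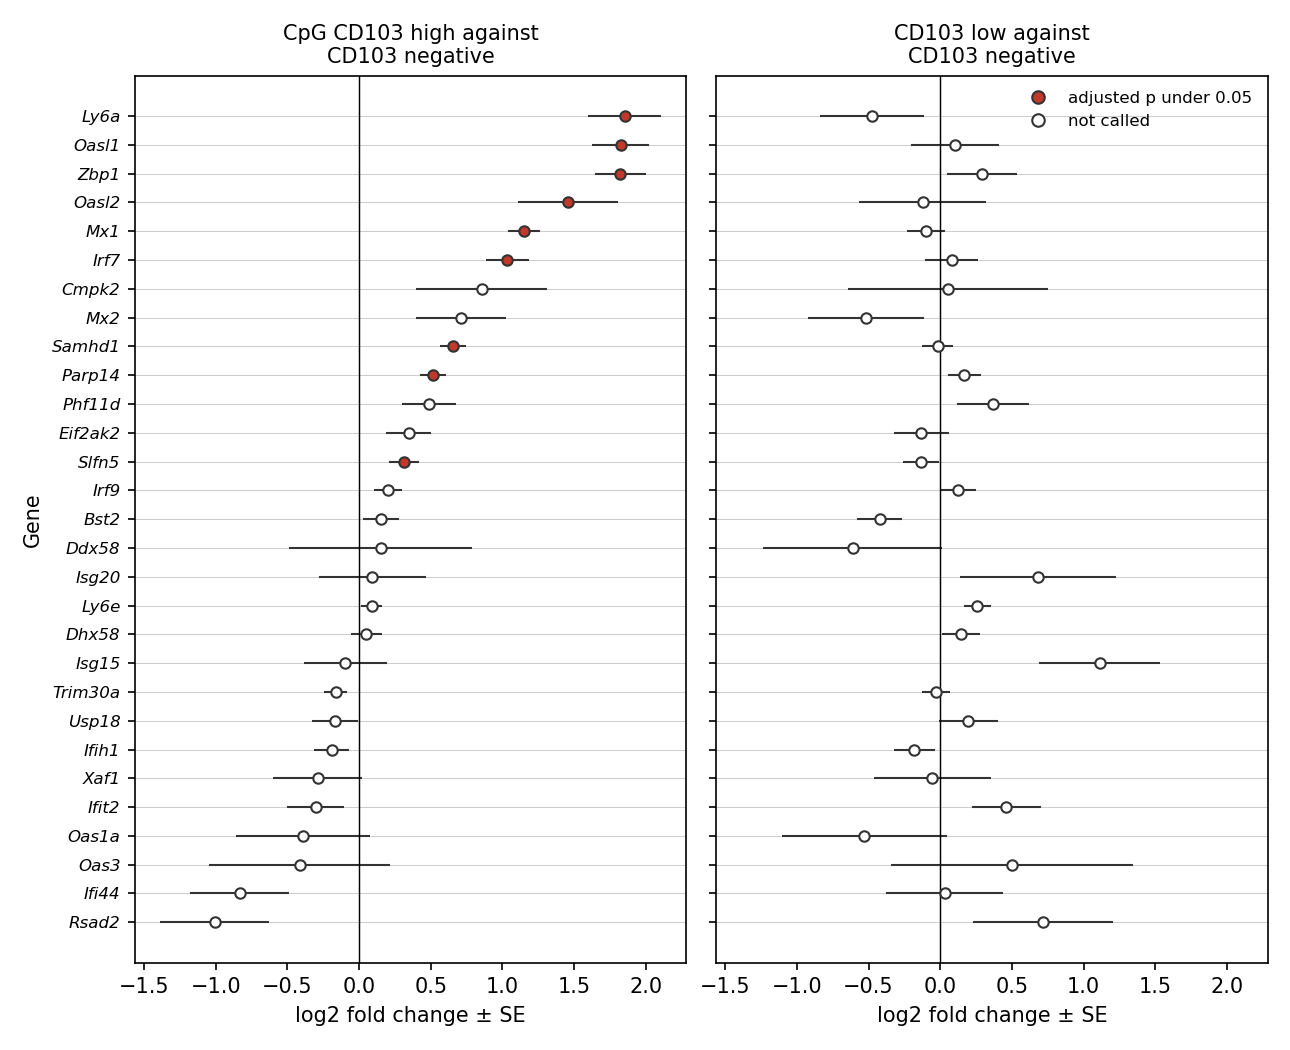
Log2 fold change with its standard error for the 29 tested genes, in CpG CD103 high (left) and CD103 low (right) against CD103 negative cells; filled points passed an adjusted p of 0.05. On the left 9 points are filled, all to the right of 0, and on the right none are. The panels share no control library. With the date term, the left rests on CD103 negative replicates 1 and 2 and the right on replicate 3 alone.

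Set beside the promoters printed above, 1 of the 5 called genes with a window (Slfn5) held the ISRE letters, as did 9 of the 16 genes tested and not called and 4 of the 5 genes not tested. Over all genes tested that had a window the share was 3.95%. The called genes Mx1, Zbp1, Ly6a and Parp14 had no window, and the call of Slfn5 was lost in 12 of 15 alternatives. Irf7, Oasl1, Oasl2 and Samhd1 had windows without a match, which says only that these letters are not in those 300 bases.

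The interferon genes themselves were nearly silent. Of 10 listed, among them Ifnb1, Ifna4, Ifng and Ifnl2, 7 had no count in any library and the other 3 had at most 3 counts over all libraries together. Of 49 genes that make, carry or restrain the interferon signal, 37 were tested, 16 were higher and 2 lower in CpG CD103 high cells, with a median log2 fold change of 0.23. Over all genes 14.5% were higher and 11.8% lower. Of the 16, Ifnar1, Tlr9 and Unc93b1 overlapped untreated libraries of 2013. Tlr9 stood at 168 and 185 CPM in treated libraries and at 177 to 211 in the untreated ones of 2013. By role, 6 of 12 receptors and transducers were higher and 1 lower, 3 of 6 other IRFs were higher and 1 lower, 6 of 9 upstream sensors and adaptors were higher, and 1 of 10 negative regulators, Socs1, was higher. Among those of lowest adjusted p were Tlr3, the endosomal RNA sensor (1.01, SE 0.08), the transcription factors Irf1 (0.87, SE 0.09), Stat3 (0.80, SE 0.09) and Stat2 (1.48, SE 0.21), and Socs1, the feedback inhibitor of the kinases (1.88, SE 0.24). Irf1 stood at 315 and 285 CPM in treated and at 158 to 191 in untreated libraries. Stat2 stood at 213 and 231 CPM in treated libraries. CD103 negative replicate 1 held 55.3 CPM of Stat2 and replicate 2 held 103, below the 119 to 126 of the 2013 libraries. Of 74 other interferon-stimulated genes 65 were tested, 15 were higher and 9 lower, with a median of 0.15, beside 14.5% higher and 11.8% lower over all genes, so the count lower was near the share of all genes. The helicase gene Znfx1 (0.93, SE 0.09), Parp12 (0.67, SE 0.09) and Pml (0.93, SE 0.14) rose. Ifi203 (-2.23, SE 0.25) and Mndal (-1.64, SE 0.18), DNA sensors of a cluster of near copies, and Ifitm3, which blocks viral entry (-1.25, SE 0.18), fell. Ifitm3 also differed by date (1.98, SE 0.15, adjusted p 0.00127): it stood at 7.99 and 7.62 CPM in treated libraries, at 18.7 and 18.5 in the CD103 negative libraries of 2012 and at 73.6 to 92.6 in the untreated libraries of 2013. With no date term its log2 fold change was -2.24. Among these 11 genes the edgeR adjusted p was lowest for Tlr3 (4.61e-05), which is also a marker of this cell type, and highest for Pml (0.00141). The pathway lists were written with earlier results of these data known and are no independent evidence of direction.

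Markers moved in this comparison too. Of 8 markers of type 1 conventional dendritic cells 6 rose, and of 4 tested markers of type 2 cells 3 fell. Over all genes tested 14.5% were higher and 11.8% lower. The 6 include Itgae, which encodes the CD103 that defines the groups, and Tlr3 and Irf8, also counted in the pathway lists. Of untested type 2 markers, Mgl2 stood higher, at 10 and 15 counts in treated and 0 or 1 in untreated libraries. Clec10a stood at 6 and 4 counts in treated and 0 to 12 in untreated libraries. Of 6 erythroid and platelet markers found, 4 were tested and 4 rose, with a summed level of 22.85 to 25.55 CPM in treated, 1.29 to 3.19 in CD103 negative and 5.75 to 14.8 in CD103 low libraries. Of 7 macrophage markers, with a summed level of 364 to 465 CPM in treated and 121 to 214 in untreated libraries, 1 rose and 1 fell. The rise was Hmox1, at 335 and 447 CPM against 54.3 to 125.3 in untreated libraries, and the fall was Vcam1. Mertk was at 0 counts in both treated libraries and in CD103 negative replicates 1 and 2. C1qa stood at 1.55 and 0.897 CPM in treated libraries, above the 0.216 to 0.639 of CD103 negative libraries, and at 4.31 and 0.230 in CD103 low ones. Of 8 monocyte and neutrophil markers 2 rose and 2 fell (118 to 176 CPM summed in treated, 203 to 296 in untreated). Plasmacytoid dendritic cells express Irf7 strongly, and their 9 markers summed to 147 to 174 CPM in treated, 131 to 229 in CD103 negative and 147 to 158 in CD103 low libraries. Of the 6 tested, Pacsin1 was higher (61.0 and 56.5 CPM against 9.92 to 26.4), Tcf4 and Spib were lower, and Siglech (0.444 and 0.448 CPM against 0.216 to 19.15), Ccr9 and Lag3 were not called. NK cell markers summed to 3.59 to 4.66 CPM in treated, 0.220 to 1.70 in CD103 negative and 2.04 to 2.99 in CD103 low libraries. T cell markers summed to 0.222 to 0.224 CPM in treated, 0.216 to 1.06 in CD103 negative and 2.73 to 30.1 in CD103 low libraries. No T or NK cell marker passed the filter on low counts. B cell markers summed to 11.8 to 13.2 CPM in treated libraries against 68.5 to 94.0 in untreated ones, and 3 of 3 tested fell. The part of other cells in the changes above was not tested.

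In CD103 low against CD103 negative cells, the comparison of CD103 level without treatment, 0 of the 29 genes were called in either direction by edgeR, by DESeq2 or by limma voom. Of all genes 0.0552% were called higher and 0.0829% lower, so a call among the 29 would be rare. At an unadjusted p under 0.05 there were 3 genes, namely Ly6e (0.26, SE 0.09, adjusted p 0.536), Bst2 (-0.42, SE 0.16, adjusted p 0.538) and Isg15 (1.11, SE 0.42, adjusted p 0.564). Isg15 stood at 5.11 CPM in CD103 negative replicate 3, the single control of that date, which was its lowest library. By CPM, not divided by length, the genes of highest mean level after Ly6e were Samhd1 (-0.02, SE 0.11, adjusted p 0.989), Trim30a (-0.03, SE 0.10, adjusted p 0.976) and Slfn5 (-0.14, SE 0.13, adjusted p 0.881). The median of the 29 genes was 0.05 and that of all genes 0.01. T cell markers summed to 30.1 CPM in CD103 low replicate 2 and to at most 2.73 in all other libraries. The monocyte markers Ly6c2 (-2.12) and Ccr2 (-1.79) were called lower, and no marker of another cell type was called. Ly6c2 stood at 9.76 and 11.3 CPM in CD103 low libraries. It stood at 8.56, 10.8 and 45.8 in CD103 negative replicates 1, 2 and 3, so its call rests on replicate 3. Ccr2 was lower in both CD103 low libraries than in all CD103 negative ones. The part of T cells and monocytes was not tested. Because the contrast rests on 1 control library, the missing calls do not show that the groups were alike. Against CD103 negative replicates 1 and 2 with no date term, Mx1 was called higher (1.03, adjusted p 0.00132) and Bst2 lower (-0.58, adjusted p 0.0227), where date and group cannot be told apart.

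In CpG CD103 high against CD103 low cells, 6 of the 29 genes were higher and 0 lower, against 3.44% and 2.78% of all genes; of those not called, Isg15, Ifit2 and Rsad2 had a negative change at an unadjusted p under 0.05, and DESeq2 and limma voom also gave 0 lower. The 6 were Ly6a (2.33, SE 0.44, adjusted p 0.0171), Oasl1 (1.72, SE 0.37, 0.0269), Zbp1 (1.53, SE 0.30, 0.0189), Mx1 (1.25, SE 0.17, 0.00474), Irf7 (0.95, SE 0.23, 0.0424) and Samhd1 (0.67, SE 0.14, 0.0223). The levels of all 6 given above did not overlap between these 2 groups. The gap was narrow for Mx1, with 92.5 and 96.4 CPM against 86.05 and 90.6, and with no date term its log2 difference was 0.10 (adjusted p 0.903). The 2 groups share no date, so every value of this comparison depends on the date term. For Isg15, the treated levels of 11.3 and 11.9 CPM fell between the 8.63 and 13.6 of the CD103 low libraries. Its log2 fold change of -1.21 (SE 0.51) is thus not seen in the levels and goes with a date term of -1.27. That term sets CD103 negative replicate 3, its lowest library at 5.11 CPM, against replicates 1 and 2. Levels of Ifit2 and Rsad2 were lower in both treated libraries than in both CD103 low ones. The count of higher genes fell to 1 without CD103 low replicate 1, 2 without CD103 low replicate 2 and 3 without CD103 negative replicate 1. Of markers of other cells, Ms4a1 and Cd22 of B cells, Vcam1, Lyz2 and Cd4 were called lower, and Ly6c2 and Hmox1 higher, and their part was not tested. This contrast is the first minus that of CD103 low against CD103 negative cells. It shares with the first the CpG CD103 high libraries and CD103 negative replicates 1 and 2. Genes called in both are therefore not separate evidence.

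The untreated CD103 negative libraries differed among themselves. The date term compares replicate 3 with replicates 1 and 2, and of the 29 genes only Mx1 was called (1.15, SE 0.13, adjusted p 0.00393), with 2.16% of all genes higher and 1.3% lower. No gene of the 29 was lower by edgeR, DESeq2 or limma voom, and Isg15 was the 1 lower gene at an unadjusted p under 0.05 (-1.27, SE 0.42, adjusted p 0.121). The 4 genes of highest mean CPM, not divided by length, Ly6e (0.01), Samhd1 (0.17), Trim30a (-0.11) and Slfn5 (-0.03), had SE of 0.09 to 0.13 and adjusted p of 0.422 to 0.954. CD103 negative replicate 3 had the highest level of 2 of the 29 genes. Of 6 tested markers of plasmacytoid dendritic cells 3 were called higher there, namely Siglech (19.15 CPM), Tcf4 (64.1) and Lag3 (34.9), as were Cd209a of type 2 dendritic cells and Ly6c2 of monocytes. Neither the dates' nor these cells' part in the level of Mx1 was tested.

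Within a date, the list also moved between replicates. CD103 negative replicate 2 lay above replicate 1 for 27 of the 29 genes, with a median log2 ratio of 0.33, against 49.1% of all genes and a median of -0.005. The exceptions were Ly6e (-0.03) and Oasl2 (-0.76, on 20 and 12 counts). Oas3 stood at 8 and 40 counts in replicates 1 and 2, Isg20 at 25 and 53, Rsad2 at 20 and 36, and Isg15 at 42 and 72. In CD103 low cells replicate 2 lay above replicate 1 for 22 of 29 genes (median 0.13), against 51.5% of all genes, and in CpG CD103 high cells for 13 of 29 (median -0.04), against 50.3%. This count was made after the values had been seen and is given as a description of single libraries.

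**Figure D5:**
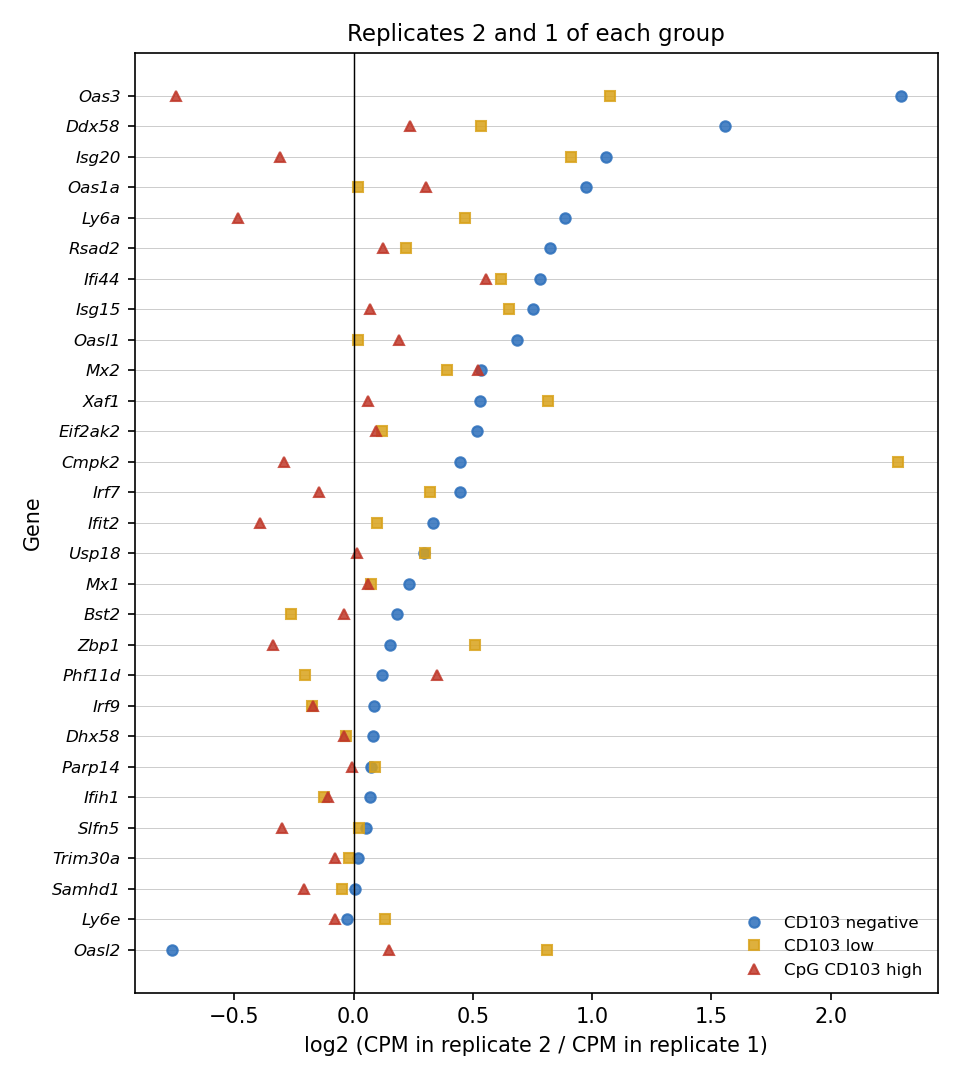
Log2 ratio of CPM in replicate 2 over replicate 1 within each group, for the 29 tested genes ordered by the ratio in CD103 negative cells. In CD103 negative cells 27 points lie to the right of 0, in CD103 low cells 22 and in CpG CD103 high cells 13.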

How the data were processed

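The authors deposited 1 file per library with raw read counts and a gene length for each of 27179 Entrez identifiers, per the file headers; CASAVA, Subread 1.4.6, featureCounts and mm10 are named per the submitters' processing notes. Annotation, strand setting and multiple mapping: not given in the sources used here. A deposited table of the whole series, with 7 columns that match no label, was not used. Symbols and coordinates came from RefSeq (GRCm38.p6, the build of mm10), matching 25275 identifiers, and 10722 genes had no count.

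The test was edgeR 4.0.16 (R 4.3.3): filterByExpr by group (10863 genes), trimmed mean of M-values scaling, and a quasi-likelihood fit of group and date to all 7 libraries with 3 residual degrees of freedom. The SE is the log2 fold change over the root of F. A call needed p under 0.05 after Benjamini-Hochberg adjustment over all genes. Replicates are called biological, without naming animals, so p-values measure the spread between these samples. Alternatives used DESeq2 1.42.0, limma 3.58.1 voom, other scalings, filters, terms and libraries. The fit was tested on simulated data for CpG CD103 high against CD103 negative cells, without a date effect. It called 70.7% of true log2 changes of size 1 and 91.9% of those of size 2, and 5.85% of its calls were false. Members, lists and tests were chosen with earlier results of these data known. Called genes are named with their statistics, as are the 4 most abundant where fewer than 4 were called and up to 6 per pathway list; others are given by level. Promoter windows came from RefSeq. Limits from counts cover counting error only. A result on 1 pathway gene and a second promoter motif are not reported here.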

Additional observations from a re-analysis of the deposited data

How the results depend on the processing

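Over 15 alternatives, 7 to 9 of the antiviral genes were called higher in CpG CD103 high against CD103 negative cells, and Oasl1, Irf7, Zbp1, Samhd1, Ly6a and Parp14 were called in each. The count lower moved from 0 to 1 with the replicate block and no date term (Ifi44) and ran from 0 to 2 when 1 replicate was left out. In CD103 low against CD103 negative the count moved from 0 to 1 higher (Mx1) and 1 lower (Bst2) with the replicate block and no date term, and likewise with that term and CD103 negative replicate 3 both left out. In CpG CD103 high against CD103 low the 6 higher genes became 1 (Mx1) with no filter on low counts and 1 to 6 when 1 replicate was left out. With the replicate block and no date term it was 7, and with that term and CD103 negative replicate 3 both left out it was 8. The cause was not tested. No called gene changed sign. Among values called in neither fit, 4 changed sign in the second comparison and 4 for the date term. Over all genes, calls ran from 837 to 1649 higher and 608 to 1364 lower in the first comparison (1576 and 1284 reported), 1 to 694 and 0 to 491 in the second (6 and 9), 52 to 906 and 63 to 889 in the third (374 and 302) and 48 to 375 and 45 to 240 for the date term (235 and 141). Without CD103 negative replicate 3 the CD103 low and date contrasts could not be fitted with the date term. Equal replicate numbers did not deviate together in every pair of groups (correlations of 0.17, -0.01 and 0.002), so they were not taken as pairs. The 7 antiviral genes with at most 11 counts in any library could not be assessed at this depth.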
